A study of Mus musculus with 6 samples.

Results

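Dendritic cells were followed here through 10 marker genes in 6 mouse bladder tumours. The genes were chosen by name, as markers of the main dendritic cell subsets: Clec9a, Batf3, Irf8 and Wdfy4 for type 1 conventional cells, Cd209a and Clec10a for type 2 conventional cells, Siglech for plasmacytoid cells, Flt3 and Zbtb46 for the lineage as a whole, and Fscn1 for mature cells. All 10 were found among the 22063 genes of the table, and all 10 passed the expression filter that left 14505 genes for testing. The tumours arose spontaneously in immunocompetent female mice and were treated with an antibody against PD-1, the inhibitory receptor of T cells. The labels call 3 tumours non-responsive and 3 responsive, so no untreated tumour enters the comparison. They give these words under the tag cell line, and they were read here as the response status of the tumour. If the tag instead names lines, the replicates of a group would share a line and not be separate responders. The sources used here do not state the strain, genotype, age or criterion of response. Beyond the word spontaneous, they also do not state how the tumours arose. They also do not say whether the tumours of a group came from different mice. The p-values therefore cover the spread among these samples only, part of which may be technical.

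Dendritic cells take up antigen and present it to T cells. They arise from bone marrow progenitors under the growth factor FLT3 ligand and divide into subsets. Type 1 conventional cells take up dead cells and cross-present their antigens to CD8 T cells, type 2 conventional cells mainly prime CD4 T cells, and plasmacytoid cells make type I interferon. In tumours, type 1 conventional cells are known as a source of CXCL9 and IL-12 and as a cell type that responses to PD-1 blockade depend on. A mature state, reached from either conventional subset, carries CCR7 and migrates to lymph nodes.

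The promoters of 3 members are printed because their transcripts ran in different directions between the groups or because they hold a motif of the factors that specify this lineage. Sequences are from RefSeq (GRCm38.p6, the same assembly as mm10), run 5' to 3' on the gene's strand and cover 250 bases before to 50 after the start site. Capitals mark motif matches.
Clec9a, chr6:129408612-129408911, plus strand: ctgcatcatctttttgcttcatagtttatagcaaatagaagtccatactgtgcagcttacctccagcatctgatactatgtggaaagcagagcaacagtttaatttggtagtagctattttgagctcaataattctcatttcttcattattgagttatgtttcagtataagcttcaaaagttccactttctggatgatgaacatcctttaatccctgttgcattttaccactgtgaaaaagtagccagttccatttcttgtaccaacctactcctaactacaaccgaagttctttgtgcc
Cd209a, chr8:3748935-3749234, minus strand: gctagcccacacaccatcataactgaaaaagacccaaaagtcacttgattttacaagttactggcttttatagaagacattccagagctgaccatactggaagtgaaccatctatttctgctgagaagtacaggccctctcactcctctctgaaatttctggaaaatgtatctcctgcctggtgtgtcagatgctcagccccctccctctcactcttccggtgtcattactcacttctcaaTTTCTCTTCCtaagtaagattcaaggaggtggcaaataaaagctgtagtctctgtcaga
Zbtb46, chr2:181424339-181424638, minus strand: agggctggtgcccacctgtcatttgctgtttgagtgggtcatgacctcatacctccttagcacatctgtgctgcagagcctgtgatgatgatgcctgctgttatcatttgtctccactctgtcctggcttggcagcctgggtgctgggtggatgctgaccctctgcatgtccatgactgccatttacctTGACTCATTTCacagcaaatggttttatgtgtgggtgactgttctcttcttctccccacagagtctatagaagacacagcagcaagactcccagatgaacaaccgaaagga
The table of promoters matched 9 of the 10 members, with Clec10a the one left out. Both strands were searched for TGANTCA (bound by AP-1 factors, BATF3 among them), GGAANNGAAA (a composite of PU.1 and IRF sites), GAAANNGAAA (the interferon-stimulated element) and GAAATGANTCA (a composite of IRF and BATF sites, which contains the first motif). The capitals in Zbtb46 are TGACTCATTTC, the composite of IRF and BATF sites read on the opposite strand, which occurs in 0.125% of all 32851 promoters of this length. It starts 61 bases before the RefSeq start site and contains an AP-1 motif, which 7.81% of promoters hold. This RefSeq start lies inside the gene as GENCODE draws it, so the window is that of an internal start and not of the gene's outer end. The capitals in Cd209a are a composite of PU.1 and IRF sites on the opposite strand, found in 2.72% of promoters. None of these letters occur in this window of Clec9a. The interferon-stimulated element, held by 3.44% of promoters, was found in 0 of the 9 member promoters.

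Total counts were between 15046178 and 23917413 per tumour, and 3 counts, the limit that a count of 0 allows, equalled 0.124 to 0.199 CPM (counts scaled to a common library size with TMM factors). This limit covers counting error only. Urothelial markers were present in every tumour, with the 16 genes summing to 4204 to 19436 CPM. Of the 16, 12 were below 0 (non-responsive minus responsive), with a median log2 difference of -1.41, 0 called by edgeR and 5 by DESeq2. Of 11 neuronal, endothelial and fibroblast genes 9 were above 0, with a median of 1.02, 0 called by edgeR and 2 by DESeq2. Without non-responsive replicate 2 these medians were -1.18 and 0.83. The part of these shifts in the dendritic cell values was not tested. A pair of tumours stood apart for the members. Non-responsive replicate 2 held the highest value of 6 members and responsive replicate 1 that of the other 4, while these tumours were highest for 23.4% and 17.4% of all genes tested. In non-responsive replicate 2 the 12 T cell markers summed to 205 CPM against 29.9 to 45.1 CPM in the other 5 tumours, and the 9 B cell markers to 74.8 against 14.4 to 21.9 CPM. In bulk tissue, fewer cells of a type and less RNA per cell cannot be told apart.

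The comparison asks how the dendritic cell compartment differed between tumours labelled non-responsive and tumours labelled responsive, all treated with the PD-1 antibody. Markers of the subsets did not run together. The log2 differences (non-responsive minus responsive) were largest upward for Clec9a at 2.09 and largest downward for Cd209a and Clec10a at -1.43 and -1.34. No member passed edgeR's quasi-likelihood test with Benjamini-Hochberg adjustment at 5%, and neither did any other gene, so 0% of genes were called. DESeq2 called 0 members against 3.06% of all genes. At an unadjusted edgeR p under 0.05 there were 3 members, 2 upward (Clec9a and Wdfy4) and 1 downward (Clec10a), while 12.6% of all genes reached it, 6.79% upward and 5.79% downward. The log2 difference was above 0 for 7 of 10 members, as it was for 51% of all genes. Its median over the members was 0.65, beside 0.01 over all genes tested, and 0.17 without non-responsive replicate 2. The 3 non-responsive values lay above all responsive values for 2 members, Clec9a and Wdfy4, and below for 0. Over all genes tested those shares were 9.58% and 8.08%, or 17.7% in either direction. With the deposited FPKM in place of CPM, the groups overlapped for all 10 members.

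**Figure D1:**
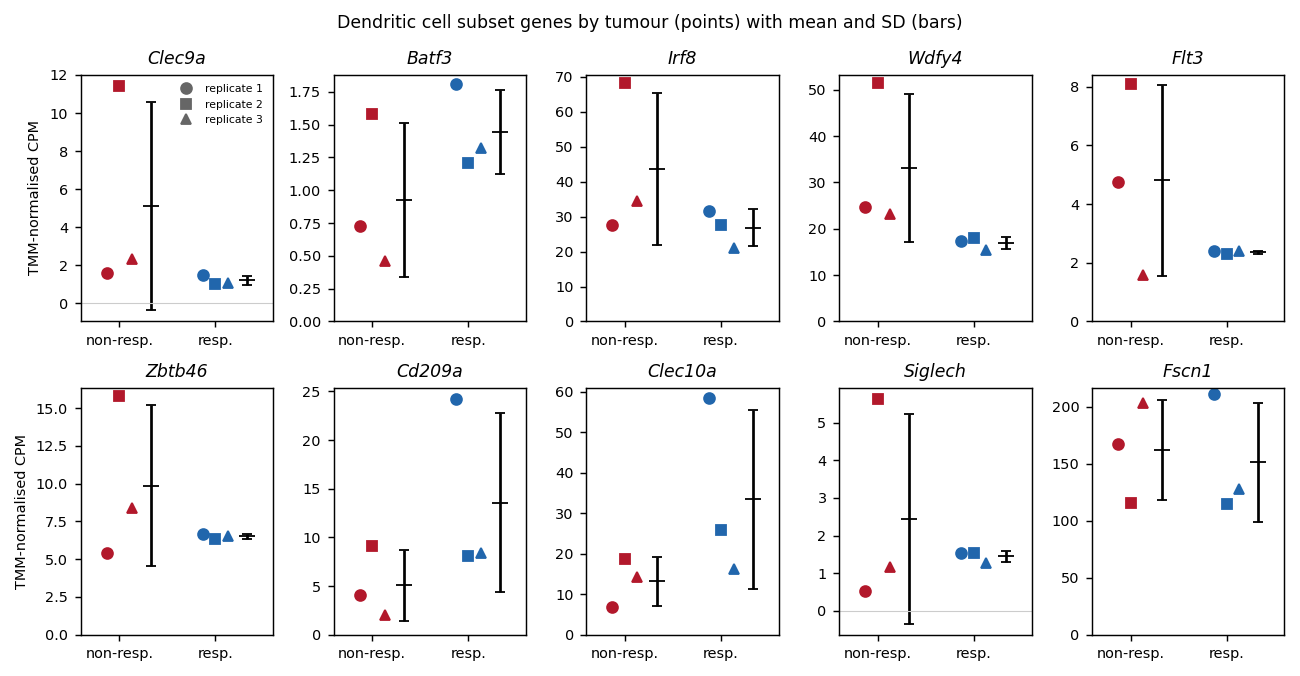
TMM-normalised CPM of each member (y axis, linear, one panel per gene) in 3 non-responsive and 3 responsive tumours (x axis); symbols mark replicate numbers and black bars the mean and SD. Non-responsive replicate 2 (square) is highest for Clec9a at 11.4 CPM, and responsive replicate 1 (circle) for Clec10a at 58.4 CPM.

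Among the markers of type 1 conventional cells, Clec9a and Wdfy4 were at higher levels in non-responsive tumours and Batf3 was not. Clec9a (chromosome 6, 129408862 to 129424763), the receptor by which these cells recognise actin exposed on dead cells, was at 1.59, 11.4 and 2.32 CPM in the non-responsive tumours, given here and from now on in the order of replicates 1 to 3. In the responsive tumours it was at 1.49, 1.02 and 1.07 CPM. The groups did not overlap, but non-responsive replicate 1 and responsive replicate 1 nearly touched, at raw counts of 24 and 33 in libraries of different depth. As FPKM, at 0.476, 4.22 and 0.761 against 0.783, 0.390 and 0.489, the groups overlapped. The counts gave a log2 difference of 2.09 ± 0.81 (SE, edgeR unadjusted p = 0.0357, adjusted p = 0.374). Without non-responsive replicate 2 it was 0.72 (unadjusted p = 0.191), so most of the difference lay in that tumour.

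Wdfy4 (chromosome 14, 32959547 to 33185508) encodes a large BEACH-domain protein needed for cross-presentation by type 1 conventional cells, and B cells express it as well. It was at 24.7, 51.5 and 23.1 CPM in the non-responsive and 17.4, 18.0 and 15.5 CPM in the responsive tumours. All 3 non-responsive values were higher, and the responsive tumours lay close together. The log2 difference was 0.96 ± 0.34 (edgeR unadjusted p = 0.0254, adjusted p = 0.364), the smallest p among the members. Without non-responsive replicate 2 it was 0.51 (unadjusted p = 0.0549). As FPKM, at 2.14, 11.7 and 3.23 against 2.68, 4.57 and 2.05, the groups overlapped.

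Batf3 (chromosome 1, 191097847 to 191108945), a transcription factor on which type 1 conventional cells depend, was the least abundant member by CPM. It was at 0.729, 1.58 and 0.463 CPM in the non-responsive and 1.81, 1.21 and 1.32 CPM in the responsive tumours. Non-responsive replicate 2 lay within the responsive range and the other 2 non-responsive tumours below it. The log2 difference was -0.65 ± 0.60 with all tumours and -1.27 without non-responsive replicate 2 (edgeR unadjusted p = 0.0634). Its raw counts were 10 to 40 per tumour, so each value carries a wide counting error.

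Irf8 (chromosome 8, 120736358 to 120756694) encodes the factor that specifies type 1 conventional and plasmacytoid cells and is also active in monocytes and B cells. It was at 27.7, 68.3 and 34.5 CPM in the non-responsive and 31.7, 27.7 and 21.1 CPM in the responsive tumours. The groups overlapped, with non-responsive replicate 2 alone far above the rest. With all tumours the log2 difference was 0.70 ± 0.37, and without that one 0.23.

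Of 16 further type 1 genes 14 were tested, 9 above 0 and 5 below, with a median of 0.23 and 0 called. That median was -0.03 without non-responsive replicate 2. Xcr1, the chemokine receptor that defines the subset, was at 1.06, 6.04 and 1.39 CPM in the non-responsive and 0.904, 1.40 and 1.11 CPM in the responsive tumours. Like Clec9a it was high in non-responsive replicate 2, but in the other 5 tumours its values overlapped, and its log2 difference of 1.31 ± 0.75 was 0.13 without that tumour. The endocytic receptor Ly75 differed by 1.11 ± 0.43 (edgeR unadjusted p = 0.0356, adjusted p = 0.373) and by 0.83 without it.

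The lineage markers Flt3 and Zbtb46 were highest in non-responsive replicate 2 and otherwise mixed. Flt3 (chromosome 5, 147330741 to 147400489), the receptor for the growth factor that sustains all subsets, was at 4.77, 8.09 and 1.57 CPM in the non-responsive tumours. The responsive tumours were nearly identical, at 2.40, 2.28 and 2.39 CPM, and lay between non-responsive replicates 1 and 3. Flt3 thus differed by 1.02 ± 0.60 on the log2 scale, or by 0.43 without non-responsive replicate 2. Leaving out the lowest non-responsive tumour, replicate 3, gave 1.44 (edgeR unadjusted p = 0.0133, adjusted p = 0.639). Zbtb46 (chromosome 2, 181387762 to 181459426), a zinc finger repressor that marks committed conventional cells and is also found in endothelial cells, was at 5.43, 15.8 and 8.38 CPM. In the responsive tumours it was at 6.69, 6.35 and 6.51 CPM. Non-responsive replicate 1 lay below all responsive tumours, and the log2 difference of 0.60 ± 0.42 was 0.10 without replicate 2. The endothelial gene Pecam1 was at 80.4, 349 and 243 CPM in the non-responsive and 95.9, 79.8 and 67.3 CPM in the responsive tumours, so it was lowest and highest of the non-responsive group in the same tumours as Zbtb46, and its part in the Zbtb46 values was not tested.

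The ligand Flt3l ran slightly the other way from its receptor, at 3.45, 4.51 and 2.55 CPM in the non-responsive and 4.16, 5.97 and 5.03 CPM in the responsive tumours, with a log2 difference of -0.53 ± 0.39. Itgax, which encodes the integrin CD11c of dendritic cells and some macrophages, differed by 1.49 ± 0.63 (edgeR unadjusted p = 0.0512) and by 0.65 without non-responsive replicate 2.

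**Figure D2:**
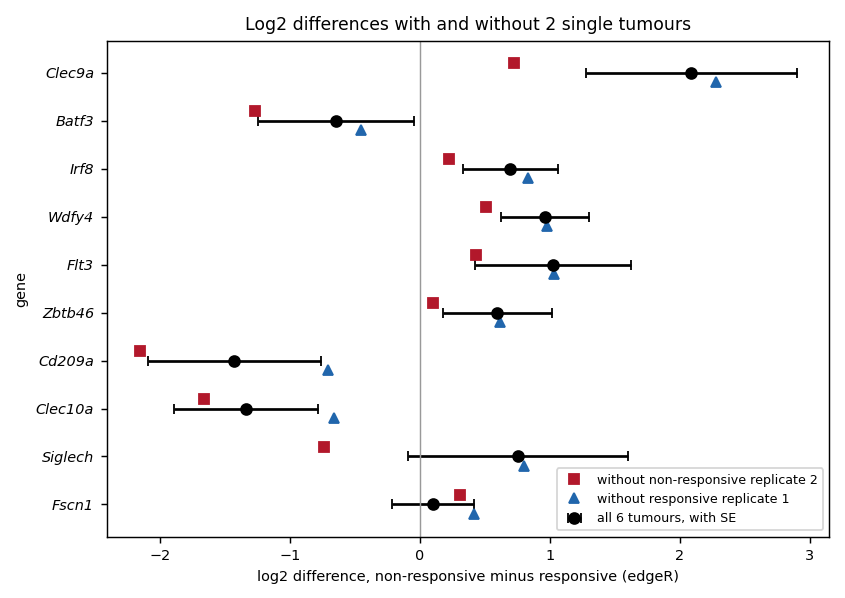
Log2 difference, non-responsive minus responsive, of each member (x axis; genes on the y axis) with all 6 tumours (circles, bars are SE), without non-responsive replicate 2 (squares) and without responsive replicate 1 (triangles). Leaving out non-responsive replicate 2 takes Clec9a from 2.09 to 0.72 and Siglech from 0.75 to -0.74, and leaving out responsive replicate 1 takes Cd209a from -1.43 to -0.71.

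The type 2 markers were both at lower levels in non-responsive tumours, with overlap. Cd209a (chromosome 8, 3743397 to 3748984), the mouse counterpart of the lectin DC-SIGN, was at 4.11, 9.09 and 1.99 CPM in the non-responsive and 24.2, 8.12 and 8.41 CPM in the responsive tumours. Non-responsive replicate 2 exceeded a pair of responsive tumours, while responsive replicate 1 was far above all others. The log2 difference was -1.43 ± 0.67 (edgeR unadjusted p = 0.0698, adjusted p = 0.416). Without responsive replicate 1 it was -0.71, and without non-responsive replicate 2 it was -2.16 (unadjusted p = 0.0198, adjusted p = 0.455). Clec10a (chromosome 11, 70156197 to 70170834), a lectin that binds galactose and N-acetylgalactosamine and is shared by type 2 conventional cells and some macrophages, was at 6.76, 18.7 and 14.2 CPM in the non-responsive tumours. In the responsive tumours it was at 58.4, 25.8 and 16.2 CPM. The ranges overlapped only through non-responsive replicate 2, which exceeded responsive replicate 3. Clec10a differed by -1.34 ± 0.55 on the log2 scale (edgeR unadjusted p = 0.0459, adjusted p = 0.391), and it was -0.66 without responsive replicate 1.

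Both lectins have close paralogs, and the sources used here do not say how reads shared between copies were counted. Cd209d, a neighbour of Cd209a, was at 0.265, 1.29 and 1.57 CPM in the non-responsive and 22.0, 4.13 and 2.02 CPM in the responsive tumours. Its groups did not overlap, and its log2 difference was -3.14 ± 1.04 (edgeR adjusted p = 0.364, DESeq2 adjusted p = 0.0336), or -1.53 without responsive replicate 1. Mgl2, the neighbour and near copy of Clec10a, was at 9.81, 55.2 and 4.96 CPM in the non-responsive and 44.3, 18.5 and 17.5 CPM in the responsive tumours. Its log2 difference was -0.20 ± 0.86 with all tumours and -1.86 without non-responsive replicate 2 (edgeR unadjusted p = 0.0183, adjusted p = 0.455). In that tumour Mgl2 was at its highest of the 6, while the log2 CPM of Clec10a (prior count 2) was near its mean over the 6.

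Of 17 further type 2 genes 16 were tested, 10 above 0 and 6 below, with a median of 0.34, 0 called by edgeR and 1, Cd209d, called by DESeq2. The median was -0.08 without non-responsive replicate 2. Irf4, the factor of type 2 conventional cells, T cells and plasma cells, was at 25.4 CPM in non-responsive replicate 2 and at 3.01 to 7.91 CPM in the other 5. Its log2 difference was 0.92 ± 0.81 with all tumours and -0.56 without that one. Sirpa, an inhibitory receptor of type 2 conventional cells and of macrophages, ran opposite to the lectins at 0.94 ± 0.34 (edgeR unadjusted p = 0.0276, adjusted p = 0.367). Macrophages share several of these genes. Their 16 markers summed to 2441, 3887 and 2421 CPM in the non-responsive and 3125, 2597 and 1327 CPM in the responsive tumours. Of these markers 14 were above 0 and 2 below, with 0 called by edgeR and 2 by DESeq2. Those of smallest p, Fcgr1, Mertk and Ly6c2, ran opposite to the lectins, at 1.13 ± 0.29, 1.23 ± 0.35 and 2.35 ± 0.67. The scavenger receptor Cd163 followed the lectins in being highest in responsive replicate 1, at 51.0 CPM against 1.99 to 18.6 CPM in the other 5 tumours. The part of macrophages in the lectin values was not tested. The Langerhans cell gene Cd207 was at 0 to 0.265 CPM.

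Siglech (chromosome 7, 55768178 to 55778925), a Siglec family receptor of plasmacytoid cells, was at 0.530, 5.63 and 1.16 CPM in the non-responsive and 1.54, 1.52 and 1.28 CPM in the responsive tumours. Non-responsive replicate 2 was the highest of all and the other 2 non-responsive tumours the lowest. The log2 difference of 0.75 ± 0.85 accordingly turned to -0.74 without replicate 2. Siglech belongs to a gene family with near copies, with the same limit on shared reads. Of 19 further plasmacytoid genes 15 were tested, 11 above 0 and 4 below, with a median of 0.85, or 0.31 without non-responsive replicate 2, and 0 called by edgeR. Tlr9, the DNA sensor of plasmacytoid and B cells, was at 6.56, 16.5 and 12.7 CPM in the non-responsive and 3.75, 4.06 and 2.06 CPM in the responsive tumours. Its groups did not overlap, and the log2 difference of 1.86 ± 0.46 (edgeR adjusted p = 0.35) was 1.57 without non-responsive replicate 2. DESeq2 called 1 of the 15, Tlr9. Tcf4, the factor that specifies plasmacytoid cells and is also active in stroma, differed by 0.87 ± 0.37, or by 0.53 without that tumour. Of the other listed genes of smallest p, Runx2 and Tlr7 were above 0, at 1.40 ± 0.55 and 0.91 ± 0.38. Smim5 ran the other way at -1.46 ± 0.58 (edgeR unadjusted p = 0.039, adjusted p = 0.381). Several listed genes, such as Ly6d and Atp1b1, are also expressed by epithelial cells.

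Fscn1 (chromosome 5, 142960343 to 142973185) encodes fascin, the actin-bundling protein of mature dendritic cells and also of many tumour and stromal cells. Among the members it showed the smallest log2 difference. It was at 167, 116 and 203 CPM in the non-responsive and 211, 115 and 128 CPM in the responsive tumours. The groups overlapped along their whole length and the log2 difference was 0.10 ± 0.32. Non-responsive replicate 2, highest for Clec9a, Flt3 and Siglech, was among the lowest for Fscn1. Ccr7, the migration receptor of mature dendritic cells and of naive T cells, was instead highest there, at 5.83, 20.1 and 6.11 CPM in the non-responsive and 3.57, 4.70 and 5.60 CPM in the responsive tumours. Its log2 difference was 1.20 ± 0.55 with all tumours and 0.39 without that one. Of 24 mature-state genes 22 were tested, 16 above 0 and 6 below, with a median of 0.66, 0 called by edgeR and 1 (Pdcd1lg2) by DESeq2. The median was 0.22 without non-responsive replicate 2. The ligands of PD-1 were among those of smallest p: Cd274 differed by 1.48 ± 0.48 and Pdcd1lg2 by 2.66 ± 0.87 (edgeR adjusted p = 0.364 each), and without non-responsive replicate 2 by 0.99 and 1.20. The chemokine Ccl22, made by mature dendritic cells to draw regulatory T cells, differed by 1.62 ± 0.60, or by 0.75 without that tumour.

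Genes that feed or recruit dendritic cells numbered 21, of which 16 were tested, 13 above 0 and 3 below, with a median of 0.93, 0 called by edgeR and 3 by DESeq2. The median was 0.44 without non-responsive replicate 2. Cxcl9, the interferon-induced chemokine that draws activated T cells, was at 14.2, 241 and 127 CPM in the non-responsive and 11.3, 14.9 and 2.84 CPM in the responsive tumours. Responsive replicate 2 exceeded non-responsive replicate 1, and the log2 difference was 3.73 ± 1.04 (edgeR adjusted p = 0.35, DESeq2 adjusted p = 0.0024). It was 2.90 without non-responsive replicate 2. Cxcl10, a chemokine of the same family, differed by 1.86 ± 0.56. Xcl1, the ligand of XCR1 made by T and NK cells, was below the filter at 0.861, 2.40 and 0.0926 CPM in the non-responsive and 0.165 to 0.190 CPM in the responsive tumours, the latter at about the limit that a count of 0 allows. Genes of cross-presentation and dendritic cell function, Itgax and Cgas among them, had a median of 0.31 over the 19 tested. Of these 16 were above 0, 0 were called and 0 were at an unadjusted edgeR p under 0.05. Without non-responsive replicate 2 the direction turned, to a median of -0.27 with 7 of 19 above 0. Ciita, the class II transactivator, differed by 1.07 ± 0.59 and by 0.07 without non-responsive replicate 2.

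**Figure D3:**
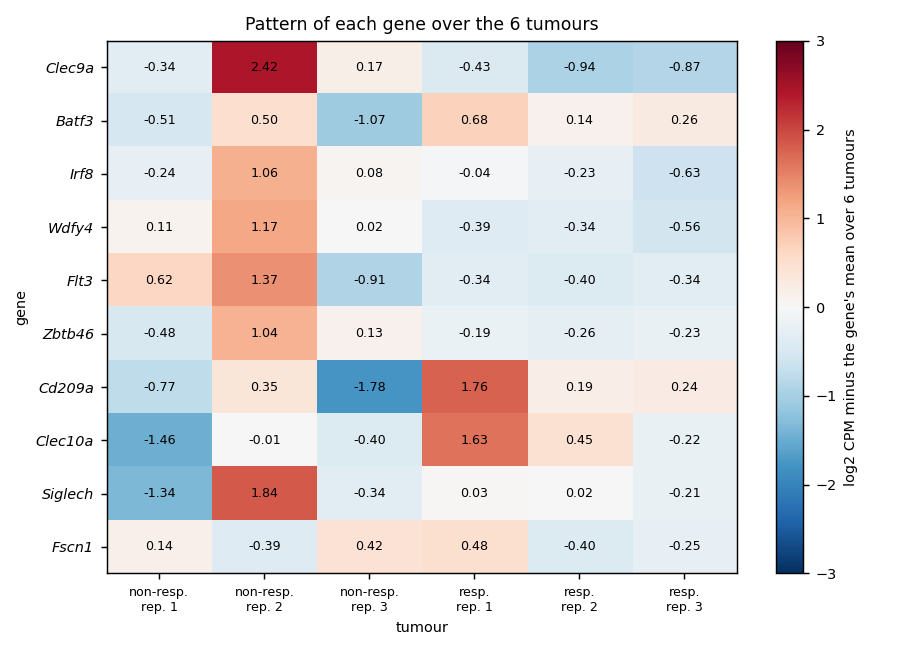
Each cell gives a member's log2 CPM (prior count 2) minus its mean over the 6 tumours (rows, genes; columns, tumours; red above, blue below the mean). Non-responsive replicate 2 is above the mean for 8 of the 10 members, reaching 2.42 for Clec9a, and responsive replicate 1 reaches 1.76 for Cd209a and 1.63 for Clec10a.

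Ratios between members within a tumour leave the library scaling almost out of the comparison. Of the 45 ratios between members, 19 (42.2%) did not overlap between the groups, beside 18.4% of all 105190260 pairs of genes tested. With FPKM values 14 of the 45 did not overlap, and the share over all pairs of genes was not computed. The ratios that overlapped only with FPKM were Clec9a to Zbtb46 and to Irf8, Batf3 and Cd209a to Wdfy4, and Clec10a to Siglech. The ratios were computed after the members' values had been seen, and the members' pairs share genes. The ratios of Clec9a to the type 2 lectins showed the largest differences. The log2 ratio of Clec9a to Cd209a (CPM + 0.5) was -1.14, 0.32 and 0.18 in the non-responsive tumours. It was -3.63, -2.51 and -2.50 in the responsive tumours. All non-responsive tumours lay above all responsive ones, by a mean difference of 2.67 (two-sided exact permutation p = 0.1, the smallest that 3 against 3 allows; adjusted over 45 ratios 0.237). Without non-responsive replicate 2 the difference was 2.40, without responsive replicate 1 it was 2.29, and with FPKM values it was 2.37. For Clec9a to Clec10a the difference was 2.51, and 2.04 to 2.89 when each tumour was left out in turn. Within the type 1 markers, the log2 ratio of Clec9a to Batf3 was 0.77, 2.52 and 1.55 in the non-responsive tumours. In the responsive tumours it was -0.21, -0.17 and -0.21, below all non-responsive ones. These 3 ratios rest on raw counts of 16 to 40, so each carries a wide counting error. With FPKM they were -1.35, -1.65 and -1.59. By CPM, Clec9a was above Siglech in every non-responsive tumour and below it in every responsive one. The log2 ratios were 1.02, 0.96 and 0.76 against -0.03, -0.42 and -0.18. With FPKM the groups came close, at 0.12 in non-responsive replicate 3 and -0.003 in responsive replicate 1. The ratios of Clec9a to Flt3, Wdfy4 and Fscn1 overlapped between the groups.

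Leukocyte transcripts were not at the same level in all tumours. Ptprc, which encodes the pan-leukocyte phosphatase CD45, was at 80.8, 263 and 102 CPM in the non-responsive and 58.3, 80.2 and 30.7 CPM in the responsive tumours (log2 difference 1.40 ± 0.53, edgeR adjusted p = 0.373). It differed by 0.71 without non-responsive replicate 2. Coro1a, another gene of leukocytes in general, differed by 0.25 ± 0.37, and by -0.09 without that tumour. Cd53 and Laptm5, also genes of leukocytes in general, differed by 0.53 and 0.65 without that tumour, nearer to Ptprc. Relative to Ptprc, 5 of the 10 members lay lower in all non-responsive than in all responsive tumours and 0 higher, against 37.1% and 0.0414% of all genes. The 5 were Cd209a, Clec10a, Batf3, Siglech and Irf8, each at an exact permutation p of 0.1, the smallest possible, and 0.2 adjusted over the 10 members. Cd209a had log2 ratios to Ptprc of -4.14, -4.78 and -5.36 in non-responsive tumours. Those of the responsive tumours were -1.25, -3.23 and -1.81, a mean difference of -2.67. Clec10a differed by -2.51, Batf3 by -1.81, Siglech by -1.13 and Irf8 by -0.70. For Irf8 the groups all but touched, at -1.53 in non-responsive replicate 1 and -1.52 in responsive replicate 2. Clec9a, the member with the largest upward difference per total RNA, had ratios of -5.28, -4.47 and -5.18 against -4.88, -5.74 and -4.31, which overlapped with a mean difference near 0 (-0.00082). Wdfy4 and Flt3 overlapped too, at -0.45 and -0.63. With the mean of 4 leukocyte genes (Ptprc, Cd53, Laptm5 and Coro1a) as the reference, Cd209a, Clec10a and Batf3 differed by -2.17, -2.02 and -1.32. Siglech and Irf8 then differed by -0.63 and -0.21 (exact permutation p = 0.4 and 0.5).

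**Figure D4:**
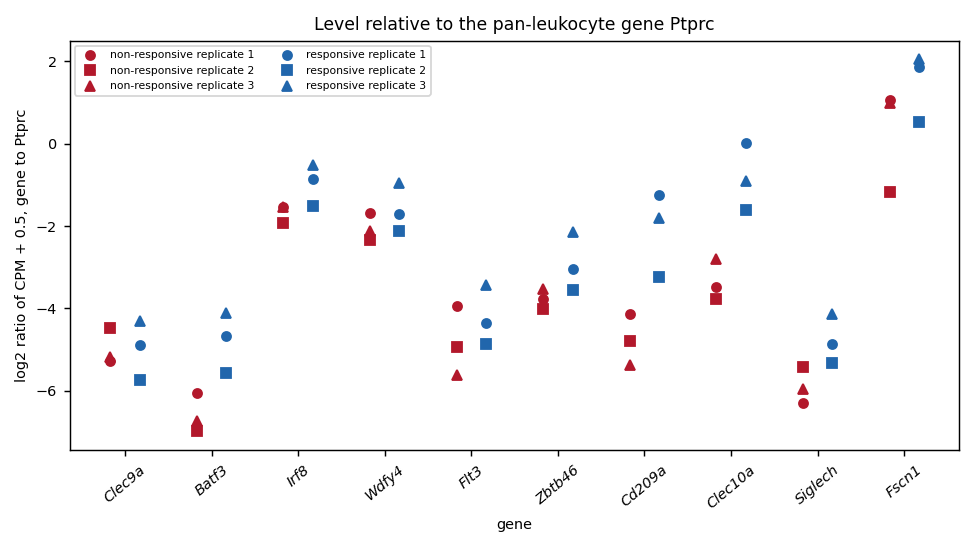
Log2 ratio of each member's CPM + 0.5 to that of Ptprc (y axis) by gene (x axis) in 3 non-responsive (red) and 3 responsive (blue) tumours; symbols mark replicate numbers. Red and blue points separate for Cd209a and Clec10a and intermix for Clec9a.

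Levels were compared between genes per length, as FPKM over the 6 tumours. Fscn1 stood highest at 78.4 ± 22.8 FPKM (SD, n = 6), and its lowest tumour at 55.9 exceeded the highest value of the next gene, Clec10a, at 38.0. Below it came Clec10a at 15.6 ± 11.8, Irf8 at 12.7 ± 7.35, Cd209a at 6.35 ± 5.06 and Wdfy4 at 4.40 ± 3.70 FPKM. Zbtb46 was at 1.91 ± 1.08, Batf3 at 1.49 ± 0.672, Clec9a at 1.19 ± 1.5, Siglech at 1.10 ± 1.10 and Flt3 at 1.00 ± 0.775 FPKM. From Clec10a down, the ranges of neighbours in this order overlapped. Both type 2 lectins were at a higher FPKM than Clec9a in every tumour. The log2 ratio of Clec9a to Cd209a (FPKM + 0.1) was between -4.17 in responsive replicate 1 and -0.71 in non-responsive replicate 2.

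For 5 members the genes of nearest pattern were taken, by the root mean square difference between centred log2 CPM over the 6 tumours, which share depth and tissue make-up. Nearest to Clec9a were Cd28 at 0.20, Siglecg at 0.21 and Cysltr2 at 0.25, where the median gene was at 1.20. Cd28 is a T cell gene and Siglecg a B cell gene. Nearest to Cd209a were Cspg4b, Gdf10 and Smyd1 at 0.17 to 0.20, all highest in responsive replicate 1, such as Gdf10 at 38.1 CPM against 3.70 to 13.8 CPM in the other 5. Nearest to Flt3 were Il1rl1, Slc5a8 and the NK and T cell gene Klrd1 at 0.22 each. Nearest to Siglech were Prr33, Col6a4 and Fam169b at 0.19 to 0.23, and nearest to Fscn1 were Foxd2, Tln2 and Trap1 at 0.10 to 0.11.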

How the data were processed

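Bulk RNA was sequenced from 6 bladder tumours. Per the labels' protocols, RNA was extracted with TRIZOL and libraries made with an Illumina TruSeq kit, and per the submitters' processing notes the build was mm10. The sources used here do not name the aligner, counter, strand setting or annotation. Per the file headers each tumour has a count column and an FPKM column. The values that the authors deposited as counts are estimated counts without scaling, since 8.19 to 9.99% per tumour were not whole. They were rounded. FPKM, as deposited, is scaled for length and depth and was used for levels between genes and as an alternative. Coordinates are from GENCODE mouse release 21, counted from 1.

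Genes were tested with edgeR 4.0.16 (R 4.3.3): TMM, default filter, robust quasi-likelihood test, two-sided, Benjamini-Hochberg over all 14505 genes, threshold 5%. CPM are TMM-scaled, and ± after a log2 difference is its SE. Ratios used log2(CPM + 0.5) and two-sided exact permutation tests. Members and gene lists were chosen with earlier results of these data known. Named are all members, 9 genes fixed by name, some of the up to 4 genes of smallest p per list, and the 3 nearest patterns for 5 members. For some lists no gene of smallest p is named. Mgl2, Cd163, Pecam1, Cd207, Coro1a, Cd53, Laptm5 and the ratios between members were chosen for mention after their values were seen. Alternatives were other scaling, DESeq2 1.42.0, limma-voom (limma 3.58.1), limma on log2(FPKM + 1), other filters, the replicate block and leaving out each tumour. Simulated counts with known changes were used to check the edgeR step. All pairs of libraries differed beyond sampling noise (the lowest chi-square over its degrees of freedom was 75.7).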

Additional observations from a re-analysis of the deposited data

How the results depend on the processing

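DESeq2 called 444 of 14505 genes, with 2270 at an unadjusted p under 0.05, where edgeR called 0, with 1825 at that level. DESeq2 called 0 of the 10 members, with 4 at an unadjusted p under 0.05. No other setting run called a gene or a member: other scaling in edgeR, limma-voom, limma on FPKM, no filter, at least 5 CPM in 3 tumours, the replicate block and leaving out each tumour. The median of the members' log2 differences was 0.17 to 0.91 when each tumour was left out, and 0.29 with the replicate block. Tumours of the same number did not deviate together (correlations of -0.11, -0.09 and -0.02), so the numbers were not taken as pairs. The log2 difference of Siglech was -0.74 without non-responsive replicate 2, and up to 1.22 without another tumour. That of Fscn1 was -0.10 without non-responsive replicate 3, and -0.06 and -0.01 without responsive replicates 2 and 3, and up to 0.42 without another tumour. The other 8 members kept their direction in every setting that tested them, with Wdfy4 between 0.48 and 1.16 and Clec10a between -1.68 and -0.66. The filter of 5 CPM left 6 members and the FPKM filter 7. Relative to the mean of the 4 leukocyte genes, Ptprc among them, Clec9a differed by 0.49 and Wdfy4 by 0.045. Clec9a relative to Ptprc differed by 0.15 and 0.10 without non-responsive replicates 1 and 3, and by 0.05 and 0.33 without responsive replicates 1 and 3, and by -0.26 and -0.38 without non-responsive and responsive replicate 2. It differed by -0.38 with a pseudocount of 2 and by -0.35 as FPKM. The causes were not tested. Depth limits Batf3, Clec9a and Siglech most, with 8 to 50 counts per tumour outside non-responsive replicate 2.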

Other observations

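Wdfy4 gave different pictures as counts and as FPKM. In the responsive tumours its CPM lay between 15.5 and 18.0, while its FPKM was 2.68, 4.57 and 2.05 in replicates 1, 2 and 3. In the non-responsive tumours FPKM was 2.14, 11.7 and 3.23. The FPKM per CPM of Wdfy4, scaled to the median gene of each tumour, varied 2.72-fold between the lowest tumour (non-responsive replicate 1) and the highest (responsive replicate 2). Over 11897 genes of at least 5 CPM the median of this range was 1.04-fold, and 0.118% of them had a wider range than Wdfy4. Among the members Clec9a came next at 1.82-fold, with all 3 responsive tumours above the non-responsive ones, and Batf3, Flt3 and Irf8 varied by at most 1.02-fold. The cause was not tested. This comparison was made after the values were seen.

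The 12 T cell markers and the B cell markers moved with Clec9a in 1 tumour. In non-responsive replicate 2 the 12 T cell markers had a mean centred log2 CPM of 2.01 and the tested B cell markers of 1.72, while Clec9a was at 2.42. In non-responsive replicates 1 and 3 Clec9a was at -0.34 and 0.17, the T cell markers at -0.14 and -0.30, and the B cell markers at -0.48 and -0.10. The part of these cells in the Clec9a values was not tested.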
